A study of Mus musculus with 10 samples.

Results

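The genes of the major histocompatibility complex (MHC) class I presentation pathway were examined in mouse cerebral cortex after traumatic brain injury (TBI). The set was chosen by gene name, with earlier results of these data known, and held 10 of the 55401 genes in the table. Its members were the classical heavy chain genes H2-D1 and H2-K1, the nonclassical heavy chain genes H2-T23, H2-T22 and H2-M3, the light chain gene B2m, the peptide transporter genes Tap1 and Tap2, the loading factor gene Tapbp and the transactivator gene Nlrc5. Total RNA had been sequenced from 5 mice with TBI and 5 control mice, 1 library for each animal. The sample titles call the controls Sham and the series design calls them naive, so a mock operation of the controls cannot be taken as given. How and how long before sampling the injury was made is not given in the sources used here, nor are the strain, sex and age of the mice. In bulk tissue, more cells of a type and more RNA in each cell cannot be told apart.

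Class I molecules display peptides from inside the cell at its surface, where CD8 T cells and natural killer cells inspect them. Cytosolic proteins are cut by the proteasome, the Tap1 and Tap2 proteins carry the peptides into the endoplasmic reticulum, and tapasin, the product of Tapbp, holds the empty heavy chain and light chain beside the transporter until a peptide binds. Interferons and the transactivator Nlrc5 raise transcription of the pathway, which is low in the healthy brain parenchyma and is known in microglia, endothelium and some neurons.

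The sequence upstream of the heavy and light chain genes is shown because Nlrc5, interferon-induced factors and NF-kB are known to act there. Of the 10 members, 8 had an entry in the RefSeq promoter table (build GRCm38.p6), and the 200 bases before the start are printed 5′ to 3′ on the strand of the gene for the 6 chain genes. H2-K1 has 2 starts in the table and the one farther upstream was used. The RefSeq starts do not always match the gene intervals given below. The H2-D1 window lies inside its gene interval, as does most of the H2-T23 window. Capitals mark matches, on either strand, to the interferon response letters (GAAA, any 2 bases, GAAA, or else TTTCACTT), the NF-kB letters (GGG, any 2 bases, TTCCC), the cAMP response-like letters TGACGC and the CCAAT box letters CCAAT. The windows are chr17:35262894-35263093 (plus strand) for H2-D1, chr17:34000348-34000547 (minus strand) for H2-K1, chr17:36032702-36032901 (minus strand) for H2-T23, chr17:36042743-36042942 (minus strand) for H2-T22, chr17:37270034-37270233 (plus strand) for H2-M3 and chr2:122147487-122147686 (plus strand) for B2m.
H2-D1: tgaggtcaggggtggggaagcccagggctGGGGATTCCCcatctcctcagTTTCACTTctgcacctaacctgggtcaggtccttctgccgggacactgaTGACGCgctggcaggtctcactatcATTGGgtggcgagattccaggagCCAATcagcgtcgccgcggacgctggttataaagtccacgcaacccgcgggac
H2-K1: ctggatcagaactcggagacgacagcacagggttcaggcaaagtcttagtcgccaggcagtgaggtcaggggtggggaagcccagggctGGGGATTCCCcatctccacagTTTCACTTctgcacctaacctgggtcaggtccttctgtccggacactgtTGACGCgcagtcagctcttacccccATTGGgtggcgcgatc
H2-T23: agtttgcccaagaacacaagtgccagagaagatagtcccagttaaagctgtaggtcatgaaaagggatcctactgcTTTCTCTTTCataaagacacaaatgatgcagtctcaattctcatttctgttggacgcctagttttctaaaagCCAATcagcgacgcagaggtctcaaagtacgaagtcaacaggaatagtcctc
H2-T22: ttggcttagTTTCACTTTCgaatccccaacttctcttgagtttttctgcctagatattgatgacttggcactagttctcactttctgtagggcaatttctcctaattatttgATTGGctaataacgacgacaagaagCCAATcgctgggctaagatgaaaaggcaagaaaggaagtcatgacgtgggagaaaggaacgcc
H2-M3: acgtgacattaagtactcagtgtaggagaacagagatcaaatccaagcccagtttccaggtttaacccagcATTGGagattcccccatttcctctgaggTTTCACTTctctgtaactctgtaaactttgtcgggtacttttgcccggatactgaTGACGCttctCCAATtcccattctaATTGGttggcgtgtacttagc
B2m: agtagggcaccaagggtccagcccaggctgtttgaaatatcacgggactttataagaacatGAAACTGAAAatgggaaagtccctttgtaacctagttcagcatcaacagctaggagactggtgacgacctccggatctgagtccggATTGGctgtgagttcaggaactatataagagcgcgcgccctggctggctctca

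H2-D1 and H2-K1 carried the same layout, an NF-kB match followed by an interferon match 21 bases on and a cAMP response-like match a further 49 bases on. In H2-D1 these began at positions -171, -150 and -101 from the start and in H2-K1 at -111, -90 and -41. The 2 windows aligned over 140 bases with 127 identical (90.7%). The first interferon form was found in 3 of the 8 members with a window (H2-T23, H2-T22 and B2m), against 2.27% of 32851 RefSeq promoter windows of the same length. TTTCACTT, added after the sequences were seen, was found in 4 (H2-D1, H2-K1, H2-T22 and H2-M3) against 1.03%, and in H2-T22 it overlapped the other interferon match. The NF-kB letters were found in 2 (H2-D1 and H2-K1) against 1.25%, TGACGC in 3 (H2-D1, H2-K1 and H2-M3) against 5.37%, and CCAAT in 7 against 29.3%. Tap1 had none of these letters in its window and Tapbp, whose RefSeq window also lies inside its gene interval, had CCAAT alone. The H2-D1 and H2-K1 windows are near copies, so their matches are not separate cases when set against these shares. All of these matches describe the letters in the window and do not show binding.

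Both classical heavy chains, the light chain, Tap1 and Tapbp rose in injured cortex, by 1.40-fold to 2.75-fold, and no member fell. H2-D1 and B2m were the most abundant members in both groups. Levels are in FPKM (fragments per kilobase of transcript, scaled to library size), means are given ± SD with n = 5 libraries in each group, and changes are log2 of TBI over Sham from edgeR's quasi-likelihood test with Benjamini-Hochberg adjustment over 16316 tested genes. Genes were tested where at least 5 of the 10 libraries had 0.5 FPKM or more. Of the 10 members 9 were tested, and 5 of these passed an adjusted p of 0.05 as higher and 0 as lower. Over all tested genes 3.57% were called higher and 0.472% lower. Tap1 met the filter through TBI libraries alone, so its call says little about the set. In the fit without a filter, which covers all 10 members, 5 were called higher (H2-D1, H2-K1, B2m, Tap1 and Nlrc5) and 0 lower, against 1.74% and 0.131% of 32852 genes. The median log2 change of the 9 tested members was 0.67, beside -0.01 over all tested genes. The set was chosen with earlier results known, so these shares and medians describe it and do not test it.

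H2-D1 (ENSMUSG00000073411, mm10 chromosome 17, 35262730 to 35267499, plus strand) encodes a classical class I heavy chain that presents peptides to CD8 T cells. It stood at 57.7, 33.8, 44.4, 24.3 and 35.9 FPKM in TBI replicates 1 to 5, against 12.3, 12.5, 13.3, 15.8 and 15.7 FPKM in Sham replicates 1 to 5. The lowest TBI library was above the highest Sham library, and the TBI libraries were spread more widely. H2-D1 rose 2.75-fold (log2 1.46, approximate SE 0.20, edgeR adjusted p = 0.0019), with means of 39.2 ± 12.6 FPKM in TBI and 13.9 ± 1.72 FPKM in Sham.

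H2-K1 (ENSMUSG00000061232, chromosome 17, 33996017 to 34000347, minus strand), the other classical heavy chain, stood at 20.2, 12.4, 15.7, 7.08 and 13.7 FPKM in TBI replicates 1 to 5, against 4.72, 6.07, 3.89, 5.36 and 6.33 FPKM in Sham replicates 1 to 5. The groups did not overlap, although TBI replicate 4 lay just above the highest Sham library. H2-K1 rose 2.55-fold (log2 1.35, approximate SE 0.24, edgeR adjusted p = 0.0085).

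B2m (ENSMUSG00000060802, chromosome 2, 122147686 to 122153083, plus strand) encodes the light chain that every class I heavy chain here needs for a stable fold at the surface. Its level was 312, 184, 223, 144 and 188 FPKM in TBI replicates 1 to 5, against 79.2, 77.8, 84.0, 94.3 and 86.3 FPKM in Sham replicates 1 to 5. Every TBI library was above every Sham library, and the order of the TBI libraries was the order seen for H2-D1 with 1 and 3 at the top and 4 at the bottom. B2m rose 2.43-fold (log2 1.28, approximate SE 0.18, edgeR adjusted p = 0.0019).

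**Figure D1:**
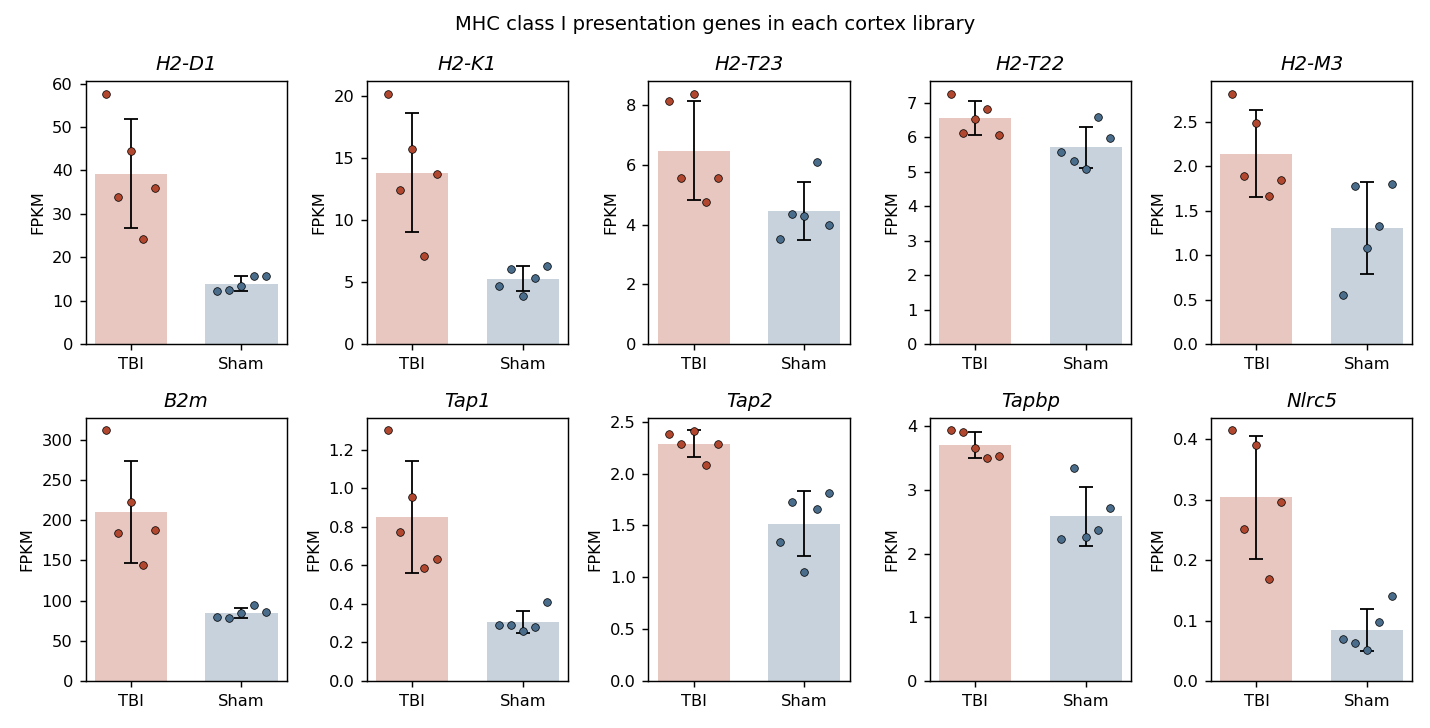
Each panel plots the FPKM of 1 gene in 5 TBI and 5 Sham libraries as points in replicate order, with bars at the mean and error bars of 1 SD. The H2-D1 points run from 24.3 to 57.7 in TBI and from 12.3 to 15.8 in Sham, while those of H2-T22 overlap, from 6.06 to 7.26 in TBI and from 5.08 to 6.58 in Sham.

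The 3 nonclassical heavy chains did not pass. H2-T23 (ENSMUSG00000067212, chromosome 17, 36029773 to 36032855, minus strand) encodes Qa-1, which presents leader peptides of other class I chains to CD94-NKG2 receptors. It stood at 8.12, 5.57, 8.38, 4.75 and 5.55 FPKM in TBI replicates 1 to 5, against 3.53, 4.37, 4.27, 6.08 and 3.99 FPKM in Sham replicates 1 to 5. Only TBI replicates 1 and 3 were above all Sham libraries, and Sham replicate 4 lay inside the TBI range (log2 0.50, approximate SE 0.19, edgeR adjusted p = 0.233).

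H2-T22 (ENSMUSG00000056116, chromosome 17, 36037128 to 36042705, minus strand), a ligand of a subset of gamma-delta T cells, stood at 7.26, 6.11, 6.52, 6.82 and 6.06 FPKM in TBI replicates 1 to 5, against 5.56, 5.32, 5.08, 6.58 and 5.98 FPKM in Sham replicates 1 to 5. It had the smallest change of the tested members, 1.12-fold (log2 0.16, approximate SE 0.08, edgeR adjusted p = 0.413). H2-M3 (ENSMUSG00000016206, chromosome 17, 37270220 to 37274484, plus strand), which presents N-formylated peptides such as those of bacteria, stood at 2.82, 1.89, 2.49, 1.67 and 1.85 FPKM in TBI replicates 1 to 5, against 0.556, 1.78, 1.08, 1.33 and 1.80 FPKM in Sham replicates 1 to 5. Of the TBI libraries 4 were above every Sham library, and Sham replicate 1 was the lowest of all (log2 0.67, approximate SE 0.29, edgeR adjusted p = 0.303).

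The peptide transporter genes differed in level and in change. Tap1 (ENSMUSG00000037321, chromosome 17, 34187553 to 34197225, plus strand) stood at 1.30, 0.771, 0.954, 0.587 and 0.633 FPKM in TBI replicates 1 to 5, against 0.289, 0.290, 0.261, 0.280 and 0.409 FPKM in Sham replicates 1 to 5. The groups were apart and Tap1 rose 2.69-fold (log2 1.43, approximate SE 0.23, edgeR adjusted p = 0.0048). Tap2 (ENSMUSG00000024339, chromosome 17, 34203527 to 34216321, plus strand), which encodes the partner subunit, stood at 2.38, 2.29, 2.41, 2.08 and 2.29 FPKM in TBI replicates 1 to 5, against 1.34, 1.73, 1.05, 1.66 and 1.81 FPKM in Sham replicates 1 to 5. All TBI values of Tap2 were above all Sham values, but its change did not pass (log2 0.55, approximate SE 0.14, edgeR adjusted p = 0.0522). Tap2 was called without Sham replicate 5 (adjusted p = 0.0463). The ratio of Tap1 to Tap2 in FPKM ran from 0.277 to 0.544 in TBI libraries and from 0.167 to 0.248 in Sham libraries, and these ranges did not overlap.

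Tapbp (ENSMUSG00000024308, chromosome 17, 33915899 to 33926197, plus strand) stood at 3.94, 3.92, 3.66, 3.51 and 3.53 FPKM in TBI replicates 1 to 5, against 2.23, 3.34, 2.26, 2.38 and 2.72 FPKM in Sham replicates 1 to 5. The TBI libraries lay close together above all Sham libraries, and Tapbp rose 1.40-fold (log2 0.48, approximate SE 0.11, edgeR adjusted p = 0.034). This call was lost when any 1 library other than TBI replicate 4 or Sham replicate 2 was left out, with adjusted p up to 0.0892.

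Nlrc5 (ENSMUSG00000074151, chromosome 8, 94434356 to 94527272, plus strand), the NLR protein that drives class I transcription, was the member with the lowest level and did not reach 0.5 FPKM in any library. It stood at 0.415, 0.251, 0.391, 0.168 and 0.296 FPKM in TBI replicates 1 to 5, against 0.0699, 0.0626, 0.0519, 0.0975 and 0.140 FPKM in Sham replicates 1 to 5. These levels rested on 893 estimated counts over the TBI libraries and 269 over the Sham libraries. About 4 counts appear to stand for 1 sequenced fragment, which is an assumption. The groups did not overlap, and in the fit without a filter Nlrc5 was 3.48-fold higher in TBI (log2 1.80, approximate SE 0.32, edgeR adjusted p = 0.0134).

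All TBI libraries were above all Sham libraries for 7 of the 10 members, namely H2-D1, H2-K1, B2m, Tap1, Tap2, Tapbp and Nlrc5. Of the 9 tested members 6 showed this, while 5.6% of all tested genes did, given as a description of a set chosen with earlier results known. Tap1 is among the 6, but it met the filter through TBI libraries alone. Its separation was therefore fixed by the filter and says little about the set. No member had all TBI libraries below all Sham libraries, which 0.729% of tested genes had. The coefficient of variation over TBI libraries was 30.2% to 34.6% for H2-D1, H2-K1, B2m, Tap1 and Nlrc5, and 5.51% to 7.69% for Tapbp, Tap2 and H2-T22.

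**Figure D2:**
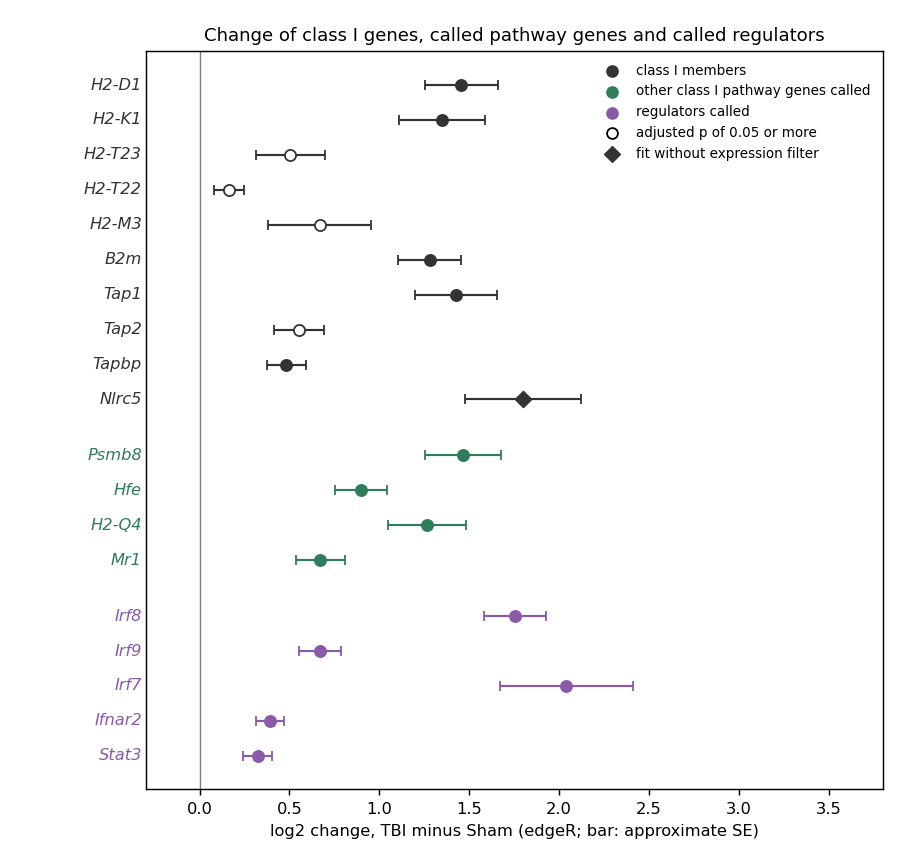
Points are log2 changes, TBI minus Sham, from edgeR with bars of 1 approximate SE, for the 10 members and for called genes of the other pathway and regulator lists that are named in the text. Filled points have an adjusted p under 0.05, and the diamond of Nlrc5 comes from the fit without an expression filter. H2-D1, H2-K1, B2m and Tap1 lie between 1.28 and 1.46, and H2-T22 is nearest to 0 at 0.16.

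The order of the levels was nearly the same in both groups. In TBI it ran from B2m (210 ± 63.4 FPKM) through H2-D1, H2-K1 (13.8 ± 4.78), H2-T22 (6.55 ± 0.504), H2-T23 (6.48 ± 1.65), Tapbp (3.71 ± 0.205), Tap2 (2.29 ± 0.130), H2-M3 (2.14 ± 0.487) and Tap1 (0.848 ± 0.288) to Nlrc5 (0.305 ± 0.102). In Sham it ran from B2m (84.3 ± 6.57 FPKM) through H2-D1, H2-T22 (5.70 ± 0.593), H2-K1 (5.27 ± 1.0), H2-T23 (4.45 ± 0.971), Tapbp (2.58 ± 0.464), Tap2 (1.52 ± 0.317), H2-M3 (1.31 ± 0.521) and Tap1 (0.306 ± 0.0590) to Nlrc5 (0.0845 ± 0.0355). H2-K1 was above H2-T22 in all 5 TBI libraries and below it in 3 of 5 Sham libraries. The ranges of H2-K1 and H2-T22 and those of H2-T22 and H2-T23 overlapped in TBI, those of H2-K1 overlapped its neighbours H2-T22 and H2-T23 in Sham, and those of Tap2 and H2-M3 overlapped in both groups.

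The make-up of the heavy chain signal differed between the groups. The 5 heavy chain members summed to 68.2 ± 19.5 FPKM in TBI and 30.7 ± 3.74 FPKM in Sham. H2-D1 held 57.1 ± 2.01% of this sum in TBI and 45.5 ± 2.40% in Sham, H2-T22 held 10.2 ± 3.02% in TBI and 18.7 ± 1.32% in Sham, and H2-T23 held 9.61 ± 1.07% in TBI and 14.5 ± 2.12% in Sham. For these 3 genes the groups did not overlap, and each difference had an exact two-sided permutation p = 0.0079, the smallest that 5 against 5 can give (Benjamini-Hochberg adjusted p = 0.0132 over 5 genes). The shares of H2-K1 (19.9 ± 2.34% in TBI and 17.2 ± 2.49% in Sham, exact permutation p = 0.103, adjusted 0.129) and H2-M3 (3.20 ± 0.329% in TBI and 4.21 ± 1.5% in Sham, exact permutation p = 0.230, adjusted 0.230) did not pass. Shares add to a fixed total, so a gain of one gene lowers the others. B2m stood at 3.08 ± 0.155 times the summed heavy chains in TBI and 2.77 ± 0.227 times in Sham, with overlapping ranges of 2.88 to 3.25 in TBI and 2.55 to 3.05 in Sham.

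**Figure D3:**
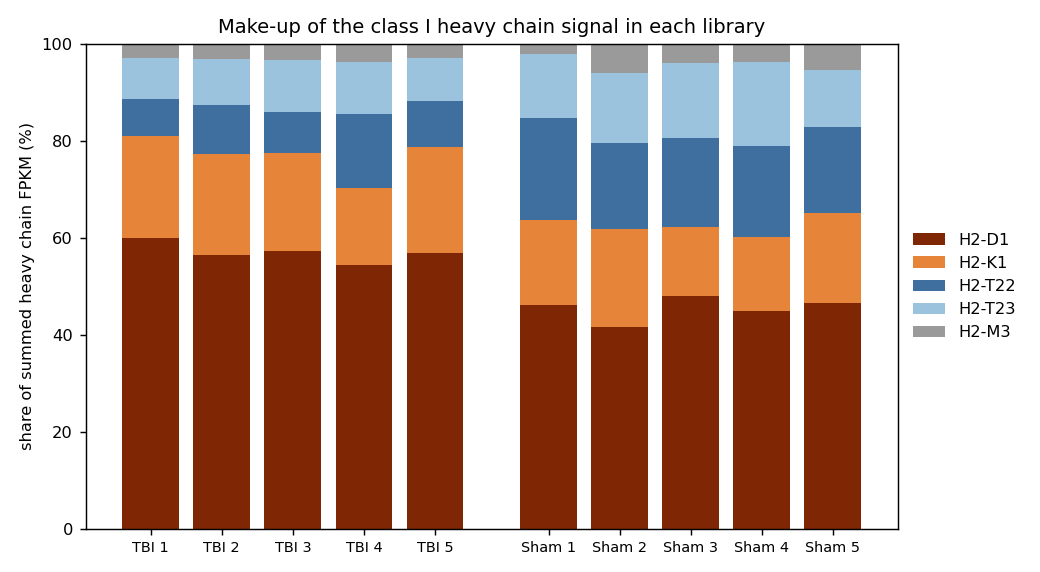
Stacked bars give, for each of 5 TBI and 5 Sham libraries, the percentage of the summed heavy chain FPKM held by each of 5 genes. The H2-D1 part spans 54.5% to 60.1% in TBI and 41.7% to 48.1% in Sham, and the H2-T22 part spans 7.56% to 15.3% in TBI and 17.7% to 20.9% in Sham.

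Heavy chain genes are related copies, and stretches of their sequence are identical. The coding sequences of H2-D1 and H2-K1 aligned with 91.4% identical bases, those of H2-D1 and H2-T23 with 81.9%, and the pairs with H2-T22 or H2-M3 with 73.2% to 75.1%. The longest exact run that H2-D1 and H2-K1 share in their coding sequence was 91 bases, within 1 exon of each gene (chr17:35265911-35266001, plus strand, in H2-D1 and chr17:33997343-33997433, minus strand, in H2-K1, mm10). It is shown as the longest stretch the classical genes have in common, and it is shorter than a 150-base read.
Shared run: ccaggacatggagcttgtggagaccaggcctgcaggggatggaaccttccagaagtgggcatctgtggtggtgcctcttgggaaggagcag
In the longest coding transcript of each gene (GENCODE M21), 1.79% of the 150-base windows of H2-D1, 0.931% of those of H2-T22, 0.831% of those of H2-T23 and 0% of those of H2-K1, H2-M3, B2m, Tap1, Tap2, Tapbp and Nlrc5 occurred exactly in another gene. With 50-base windows the shares were 44.7% for H2-T22, mostly with H2-T10, 28.8% for H2-T23, 14.3% for H2-D1 and 8.79% for H2-K1, and 0% for B2m and Nlrc5. How the authors' counting treated such reads is not given in the sources used here, and the values of single heavy chains are uncertain for that reason. The shares count exact matches of the longest coding transcript alone, and nearly identical stretches were not counted. They therefore set no upper limit on this uncertainty. Counts summed over 19 class I heavy chain genes, which do not depend on how reads were split among these 19, were 2.06-fold higher in TBI (log2 1.04, approximate SE 0.17, edgeR adjusted p = 0.0061), at 241 ± 65.8 CPM (counts scaled to library size) in TBI and 114 ± 13.0 CPM in Sham. Of the summed counts 87.0% came from the 5 heavy chain members. Sharing with genes outside the 19 remains, since 4.44% of the 100-base windows of H2-T23 and 2.496% of those of H2-D1 occur in Gm7030. The genome build is from C57BL/6J mice of MHC haplotype b, and reads of another haplotype may align less well to the polymorphic H2-D1 and H2-K1, whose effect was not tested. H2-Ea, a class II gene that is silent in haplotype b, had 0 counts in all 10 libraries. That allows up to 0.0194 fragments per megafragment (a floor of 3 fragments over all libraries, counting error only), if about 4 counts stand for 1 fragment. No level of another class II gene is given here for comparison, so this does not settle the haplotype.

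**Figure D4:**
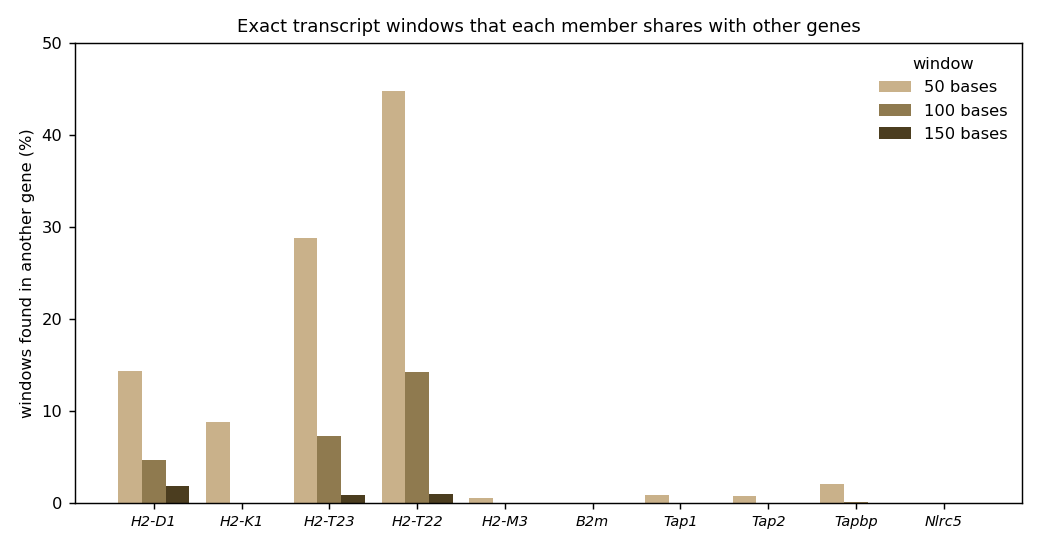
Bars give the percentage of exact windows of 50, 100 and 150 bases in the longest coding transcript of each member that also occur in a transcript of another gene. At 50 bases H2-T22 stands highest at 44.7%, and at 150 bases every member is at 1.79% or less.

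Libraries of the TBI group differed in the same way across members. TBI replicate 1 was the highest TBI library for 8 of 10 members (all but H2-T23 and Tap2, where TBI replicate 3 was), and TBI replicate 4 was the lowest for 9 of 10 (all but H2-T22, where TBI replicate 5 was). Relative to the Sham mean, H2-D1 stood 4.15-fold higher in TBI replicate 1 and 1.75-fold higher in TBI replicate 4, and Nlrc5 stood 4.92-fold and 1.99-fold higher in these 2 libraries. The sum of 8 microglia markers was also highest in TBI replicate 1 (391 FPKM) and lowest in TBI replicate 4 (222 FPKM) of the TBI libraries. The sums of the monocyte and macrophage markers (106 FPKM in TBI replicate 1 and 28.6 FPKM in TBI replicate 4) and of the astrocyte markers (539 FPKM and 352 FPKM in these libraries) had the same highest and lowest TBI library. By counts the monocyte and macrophage sum was mostly Lyz2 in the TBI libraries, and Gfap was the largest part of the astrocyte sum.

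**Figure D5:**
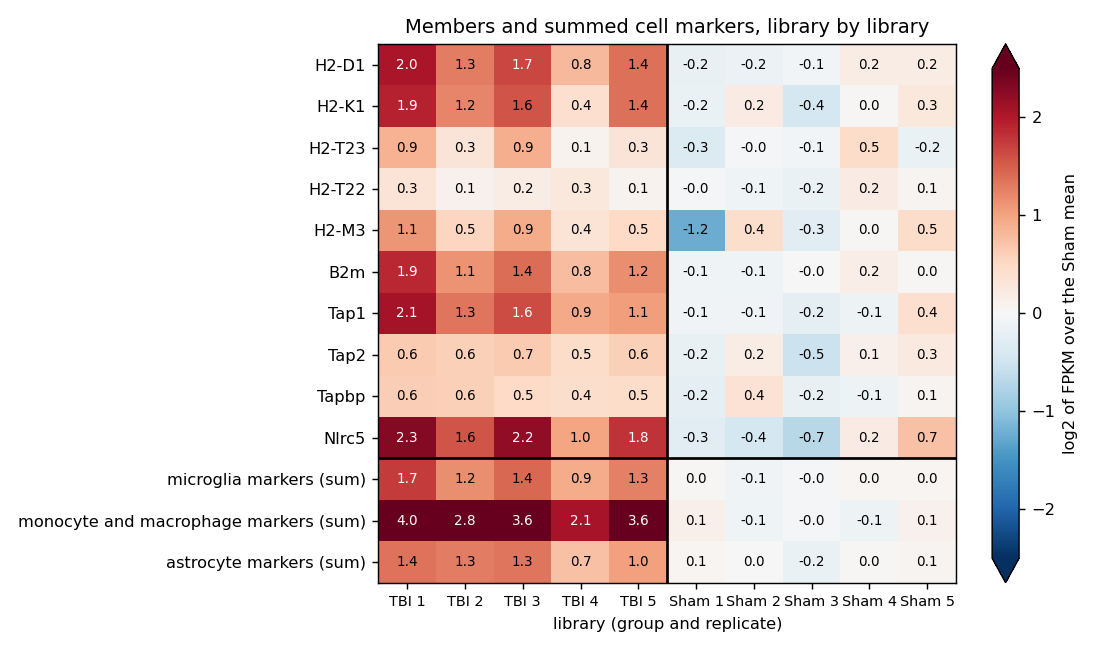
Cells give the log2 of the FPKM over the Sham mean for each member (rows) in each of 5 TBI and 5 Sham libraries (columns), with the summed microglia, monocyte and macrophage, and astrocyte markers below the line. By counts the monocyte and macrophage sum is mostly Lyz2 in TBI, and Gfap is the largest part of the astrocyte sum. Colours stop at 2.5 and cells beyond it carry their value. TBI 1 is the darkest column and TBI 4 the palest of the TBI columns for H2-D1 (2.05 and 0.81), and the summed markers follow the same order at both ends.

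Most microglia markers, and Lyz2 among the monocyte and macrophage markers, were called higher in TBI, beside 3.57% of all tested genes. All 8 microglia markers were tested and 7 of them rose, among them Cx3cr1, Tmem119, Csf1r, Aif1, C1qa and Itgam, while P2ry12 did not pass (edgeR adjusted p = 0.933). Their sum ran from 222 to 391 FPKM in TBI libraries and from 109 to 121 FPKM in Sham libraries. Of 6 monocyte and macrophage markers, Lyz2 rose, Mrc1 and Ly6c2 did not pass and 3 were below the filter, and the sum ran from 28.6 to 106 FPKM in TBI and from 6.29 to 7.54 FPKM in Sham. Over the TBI libraries Lyz2 had 2.998e+04 counts and Mrc1, the next of the 6, had 2488, so this sum mostly follows Lyz2. Set against the summed microglia markers of its own library, B2m was at 0.704 ± 0.0579 in TBI and 0.720 ± 0.0447 in Sham, H2-D1 at 0.131 ± 0.0146 in TBI and 0.119 ± 0.0121 in Sham, and H2-K1 at 0.0459 ± 0.00796 in TBI and 0.0451 ± 0.00899 in Sham, all with overlapping ranges. On the same scale H2-T22 was at 0.0230 ± 0.00469 in TBI and 0.0487 ± 0.00395 in Sham, without overlap. Tap2 was at 0.00798 ± 0.00124 in TBI and 0.0130 ± 0.00278 in Sham, and Tap1 at 0.00283 ± 0.000407 in TBI and 0.00261 ± 0.00046 in Sham, both with overlapping ranges. The choice of marker matters, since B2m over P2ry12 was at 18.8 ± 6.85 in TBI and 6.88 ± 1.17 in Sham. These markers were themselves higher in TBI, and their part in the class I result was not tested.

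Of 9 T and NK cell markers only Cd4 passed the filter, and its change did not pass (edgeR adjusted p = 0.968). The T cell receptor component Cd3e had 20 counts over the TBI libraries and 0 over the Sham libraries, the class I co-receptor Cd8a had 33 in TBI and 16 in Sham, and the cytotoxic protease Gzmb had 28 in TBI and 0 in Sham. Cd3d had 31 counts in TBI and 0 in Sham, and Trac had 119 in TBI and 114 in Sham. The summed level of the 9 markers ran from 1.07 to 6.17 FPKM in TBI and from 1.70 to 7.36 FPKM in Sham. Most counts behind this sum were of Cd4 (4493 in TBI and 5222 in Sham), so it says little about the other markers. Of 6 endothelial markers Cdh5 was higher (log2 0.34, edgeR adjusted p = 0.033), beside 3.57% of all tested genes called higher. Pecam1, Cldn5 and Tek (log2 0.12, 0.23 and 0.24) and Flt1 and Kdr (log2 -0.05 and -0.06) did not pass. The endothelial sums overlapped, at 30.8 to 38.4 FPKM in TBI and 25.1 to 32.6 FPKM in Sham. Of 6 astrocyte markers Gfap and Aqp4 rose (log2 2.72 and 0.73, edgeR adjusted p = 2.45e-04 and 0.0031), and Slc1a3, Aldh1l1, Gja1 and S100b did not pass. The astrocyte sums were 352 to 539 FPKM in TBI and 189 to 219 FPKM in Sham. By counts most of their rise was of Gfap (3.782e+05 in TBI and 5.857e+04 in Sham), so the sum says little about the other astrocyte markers. None of 6 neuronal or 5 oligodendrocyte markers was called. The neuronal markers of the labelled cortex were present in every library, with sums of 847 to 997 FPKM in TBI and 953 to 1111 FPKM in Sham.

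Further genes of class I processing and the class I-like heavy chains rose in part. Of 33 genes on this list 19 were tested, 4 rose, 0 fell and 15 did not pass, with a median log2 change of 0.24. Over all tested genes 3.57% were called higher and the median was -0.01. Psmb8, an immunoproteasome subunit, rose to 1.48 FPKM in TBI, against 0.514 FPKM in Sham (log2 1.47, edgeR adjusted p = 0.0025). H2-Q4, a nonclassical heavy chain, was at 3.55 FPKM in TBI and 1.43 FPKM in Sham (log2 1.27, edgeR adjusted p = 0.0067), Hfe, the class I-like regulator of iron uptake, at 2.20 FPKM in TBI and 1.15 FPKM in Sham (log2 0.90, edgeR adjusted p = 0.0055), and Mr1, which presents vitamin B metabolites, at 1.21 FPKM in TBI and 0.735 FPKM in Sham (log2 0.67, edgeR adjusted p = 0.017). The nearest that did not pass were H2-Q1 (log2 0.74, edgeR adjusted p = 0.0704) and the peptide-trimming protease Erap1 (log2 0.44, edgeR adjusted p = 0.119). The call of Mr1 was lost without Sham replicate 1 or Sham replicate 2 (adjusted p up to 0.0521).

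The general chaperones of the endoplasmic reticulum on this list did not pass. Calr, which encodes the lectin chaperone calreticulin, was at 122 FPKM in TBI and 117 FPKM in Sham (log2 0.02), Canx, its membrane-bound relative, at 55.8 FPKM in TBI and 54.7 FPKM in Sham (log2 -0.01), and Pdia3, the disulfide isomerase of the loading complex, at 61.0 FPKM in TBI and 53.8 FPKM in Sham (log2 0.14, edgeR adjusted p = 0.170). The remaining immunoproteasome subunits also did not pass. Psmb10 was at 10.97 FPKM in TBI and 10.3 FPKM in Sham, and Psmb9, below the filter, at 0.596 FPKM in TBI and 0.248 FPKM in Sham (log2 1.21 without a filter, edgeR adjusted p = 0.0948). Without a filter the Qa-2 genes H2-Q6 (884 counts in TBI and 190 in Sham, log2 2.34, edgeR adjusted p = 0.0199) and H2-Q7 (805 counts in TBI and 178 in Sham, log2 2.24, edgeR adjusted p = 0.0240) were also called higher. Of the 150-base windows of H2-Q7 8.44% occur in H2-Q6, and 5.99% of those of H2-Q6 occur in H2-Q7, so their separate values are uncertain.

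Among 29 regulators of class I transcription and interferon signalling 25 were tested, 6 rose, 0 fell and 19 did not pass, with a median log2 change of 0.16. The share called higher over all tested genes was 3.57%, with a median of -0.01. Irf7, an interferon-induced activator, was at 1.93 FPKM in TBI and 0.451 FPKM in Sham (log2 2.04, edgeR adjusted p = 0.0094). Irf8, a transcription factor of myeloid cells, was at 2.04 FPKM in TBI and 0.585 FPKM in Sham (log2 1.75, edgeR adjusted p = 3.7e-04). Irf9, the interferon receptor chain Ifnar2 and Stat3 rose by log2 0.67, 0.39 and 0.32 (edgeR adjusted p = 0.0080, 0.0156 and 0.0495), and the call of Stat3 was lost without any 1 of 8 libraries (adjusted p up to 0.124), without a filter (0.0887), with a filter of 2 FPKM (0.0582) and with DESeq2 size factors (0.0569). Irf1, a direct activator of class I promoters, did not pass at 2.02 FPKM in TBI and 1.45 FPKM in Sham (edgeR adjusted p = 0.125), and neither did Nfyb (log2 -0.16, edgeR adjusted p = 0.155).

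The other factors that occupy class I promoters with Nlrc5 showed no called change. Rfx5 was at 3.06 FPKM in both groups, Rfxap at 9.81 FPKM in TBI and 9.77 FPKM in Sham, and Rfxank at 4.05 FPKM in TBI and 3.81 FPKM in Sham. Ciita, the class II transactivator related to Nlrc5, had 357 counts in TBI and 268 in Sham, below the filter, and was not called without it (edgeR adjusted p = 0.475). The interferon genes Ifng and Ifnb1 had 0 counts in all 10 libraries, which allows up to 0.0194 fragments per megafragment for each.

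None of 16 genes of receptors that bind class I, or of their relatives, passed the expression filter. Without it 13 could be fitted, of which Lilrb4a (1335 counts in TBI and 107 in Sham, log2 3.69, edgeR adjusted p = 0.0053) and its near relative Lilr4b (381 counts in TBI and 27 in Sham, log2 3.88, edgeR adjusted p = 0.0011) were called higher. These are immunoglobulin-like receptors of myeloid cells. Over all genes fitted without a filter 1.74% were called higher. Pirb, an inhibitory receptor for class I, had 452 counts in TBI and 170 in Sham and did not pass (log2 1.48, edgeR adjusted p = 0.0679), and neither did Lilra5 (edgeR adjusted p = 0.401).

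Genes outside these lists whose pattern was most like the members' mean standardized level over the 10 libraries were, in order, Usp18, Oas1a, Arl11, Tlr1, Gbp2, Bst2, Scamp2, Lgmn, Prdx6 and Parp12. Pearson's r on log2(FPKM + 1) ran from 0.987 for Usp18 to 0.981 for Parp12, given as a description, since the 10 libraries fall into 2 groups that alone raise r. Arl11 (0.151 ± 0.0781 FPKM in Sham) and Tlr1 (0.151 ± 0.0651 FPKM in Sham) met the filter through TBI libraries alone. Their separation, which raises r, was therefore fixed by the filter. Usp18, which removes the interferon-induced modifier Isg15, was at 1.65 ± 0.458 FPKM in TBI and 0.390 ± 0.115 FPKM in Sham. The antiviral genes Oas1a and Bst2 and the guanylate-binding protein gene Gbp2 are interferon-induced, and Lgmn, which encodes a lysosomal protease, was at 75.6 ± 12.2 FPKM in TBI and 46.9 ± 3.06 FPKM in Sham.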

How the data were processed

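Gene-level RNA sequencing of cerebral cortex from 10 mice (5 TBI, 5 Sham) was used, with groups and replicate numbers from the sample titles and each library a separate mouse. The tools cutadapt 1.9, HISAT2 and StringTie and the build mm10 are named in the submitters' processing notes; the order of steps and the counting tool are not given in the sources used here. Reads were paired ends of 150 bases, per the labels. The deposited estimated counts are whole numbers, per the file headers and values, and total 47.6 to 71.3 megacounts for each library. About 4 counts appear to stand for 1 fragment, since 42.6% of low counts (12 or less) were multiples of 4, against 25% for an even spread. If so, each library held 11.9 to 17.8 megafragments, but many low counts were not multiples of 4 and the factor remains an assumption. The deposited FPKM are scaled by length and library by the authors; the fill value 0.0001 goes with a count of 0 and was read as 0. For the members the ratio of count to FPKM varied by at most 1.2% around its mean after 1 factor for each library. No sample column was left unused.

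Counts were tested with edgeR 4.0.16 (TMM, quasi-likelihood F test, group only) in R 4.3.3, a method checked on simulated data. The approximate SE is the absolute log2 change over the square root of F. Alternatives were other filters and scalings, DESeq2 1.42.0, limma 3.58.1 on log2(FPKM + 1) and log2(FPKM + 0.1), robust fitting, counts divided by 4, a replicate block and leaving out each library. The members, lists and rules were chosen with earlier results of these data known. All members were named; from the other lists, those that passed and the 2 nearest. Some called genes are counted but not reported here. Chaperones, immunoproteasome subunits, RFX genes, Ciita, Ifng, Ifnb1, H2-Ea, the motif TTTCACTT and ratios to markers were picked after values or sequences were seen. Shares were compared with exact two-sided permutation tests over libraries. Promoters are from RefSeq GRCm38.p6 and transcripts from GENCODE M21 (the same assembly as mm10). Intervals and floors cover counting error only.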

Additional observations from a re-analysis of the deposited data

Results flagged for a closer look

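In 30 groups of 5 libraries checked (10 members by FPKM and 5 heavy chains by share), 2 held a library that stood apart from the other 4 by more than 0.71 of the group's range, and chance alone gives about 1 in 20. Tap1 was at 0.409 FPKM in Sham replicate 5, against 0.261 to 0.290 FPKM in the other Sham libraries. The share of the heavy chain FPKM held by H2-K1 was lowest in TBI replicate 4 at 15.9%, where its 4 fellow TBI libraries lay between 20.3% and 21.8%.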

How the results depend on the processing

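The 9 tested members kept their direction in every alternative that tested them; a filter of 2 FPKM dropped H2-M3 and Tap1. H2-D1, B2m and Tap1 also stayed called in each alternative in which they were tested, H2-K1 in all but the replicate block (adjusted p = 0.0683). Over the alternatives log2 changes ran from 1.28 to 1.598 for H2-D1, 1.18 to 1.53 for H2-K1, 1.09 to 1.40 for B2m and 0.49 to 1.55 for Tap1, the lowest on log2(FPKM + 1). Tap2 was called with total counts only, DESeq2, counts divided by 4 and both limma fits (adjusted p down to 0.0045), and Tapbp was not called without a filter (adjusted p = 0.0563). Genes called higher numbered 337 with a filter of 2 FPKM. Genes called lower numbered 77, and 43 without a filter, 48 with a filter of 2 FPKM, 40 with total counts only, 229 in DESeq2, 42 on log2(FPKM + 1) and 39 on log2(FPKM + 0.1). Leaving out 1 library gave 4 or 5 members higher, 441 to 659 genes higher and 37 to 84 lower, and log2 changes of the summed heavy chains of 0.89 to 1.17, called each time. Share differences ran from 1.97 to 3.76 points for H2-K1 (exact permutation p = 0.0159 without TBI replicate 4) and from -1.54 to -0.58 points for H2-M3 (exact permutation p = 0.0079 without Sham replicate 1). Replicate numbers showed no sign of pairing the libraries. Deviations of same-numbered TBI and Sham libraries correlated at -0.14 to 0.17, and 1 of 5 TBI libraries correlated best with its own number. So few pairs cannot settle whether the numbers mark a pairing or a shared batch. With the number as a block, 3 members were higher (H2-D1, B2m and Tap1), 373 genes were higher and 29 lower, and the summed heavy chains did not pass (log2 1.001, adjusted p = 0.0652), nor did Tapbp, Irf9, Ifnar2, Stat3, H2-Q4 and Mr1.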
